A study of Ramazzottius varieornatus and Hypsibius exemplaris with 16 samples.

Results

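The gene g12777 of the tardigrade Ramazzottius varieornatus encodes AMNP, the anhydrobiosis-related Mn-dependent peroxidase, and its transcript was read in active whole animals and in isolated storage cells. It was picked out in the tables by its identifier. The tables hold 1 form of the gene, g12777.t1, among 14532 R. varieornatus targets (transcript models) of 13920 genes, and among 35385 targets when those of the second species, Hypsibius exemplaris, are added. Its listed length is 696 bases, or 232 codons, against a median of 1080 bases over all R. varieornatus targets.

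Both sample types came from strain YOKOZUNA-1, kept on agar and fed with the alga Chlorella vulgaris, and the labels describe no drying. There were 3 libraries of active whole animals, labelled as biological replicates and as the active control. The other 5 libraries were of storage cells, which were dissected out of the animals and drawn up as they were released. RNA of whole animals was extracted with TRIzol and a column, whereas storage cells were lysed directly in the buffer of the SMART-Seq v.4 amplification kit, so what the preparation did and what the sample type did cannot be told apart. Whole animals also contain storage cells. The labels do not say how many animals or cells went into a library, and the H. exemplaris libraries were not used in any comparison here.

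AMNP is an enzyme that was described in tardigrades as a peroxidase that needs manganese for its activity. Peroxidases reduce hydrogen peroxide and other peroxides, and so limit the oxidative damage that accompanies drying, rehydration and radiation. Anhydrobiosis is the nearly waterless, ametabolic state in which R. varieornatus survives drying. Storage cells are free cells that float in the fluid of the tardigrade body cavity and hold reserves such as glycogen, lipid and protein.

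The AMNP transcript was abundant in whole animals and close to undetected in storage cells. In whole body replicates 1, 2 and 3 it had 655, 553 and 588 estimated counts, which the deposited tables give as 290.6, 246.2 and 250.1 TPM (a length-corrected abundance with an equal sum in each library). In storage cell replicates 1 to 5 the estimated counts were 0, 6, 0, 5 and 21, which correspond to 0, 0.913, 0, 0.682 and 3.2 TPM. Every whole-body library lay far above every storage cell library, and the lowest whole-body TPM was 77.0 times the highest storage cell TPM.

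The mean was 262 ± 24.6 TPM (SD, n = 3) in whole bodies and 0.959 ± 1.32 TPM (SD, n = 5) in storage cells. The storage cell libraries were the deeper ones, with 8228370 to 11174369 estimated counts against 5404555 to 5601269 in whole bodies. At the pooled whole-body share of AMNP, the storage cell libraries would have held 899 to 1220 counts each. Fewer AMNP-expressing cells and less AMNP RNA per cell cannot be told apart in these bulk libraries.

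**Figure D1:**
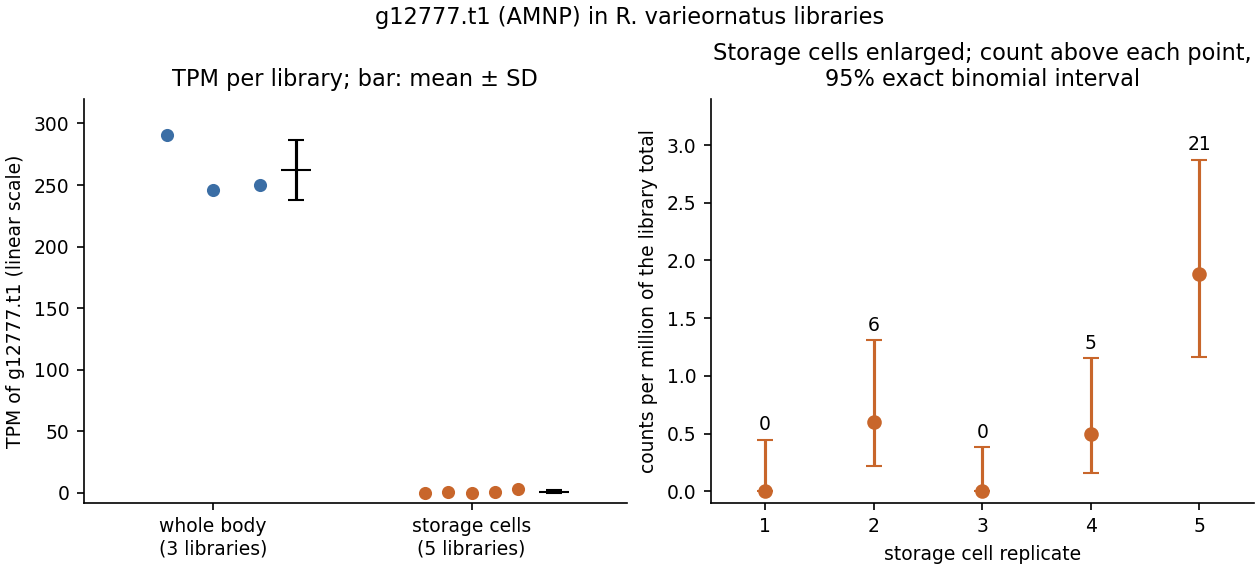
Left, TPM of g12777.t1 (linear axis) in each library of R. varieornatus, with the mean and SD of each group beside the points; right, the 5 storage cell libraries as CPM of the library total, with the count above each point and its 95% exact binomial interval. The 3 whole-body libraries sit between 246 and 291 TPM, and the storage cell libraries between 0 and 3.2 TPM, with replicate 5 the highest.

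The fall in storage cells passed the test. On counts scaled for composition by the TMM method, AMNP had 103 ± 9.8 CPM (counts per 1000000; SD, n = 3) in whole bodies and 0.779 ± 1.17 CPM (SD, n = 5) in storage cells. The log2 fold change of -7.06 (SE 1.35), or 133-fold lower, had an adjusted p of 0.00848 in edgeR's quasi-likelihood test with Benjamini-Hochberg adjustment over 10483 targets. The median target of that fit had a log2 fold change of -0.14. An exact permutation test of mean log2(TPM + 1) over all 56 arrangements of the 8 libraries gave a difference of -7.29 and a two-sided p of 0.0179, the smallest this design allows. Pooled counts, 1796 of 16444048 in whole bodies and 32 of 49173384 in storage cells, gave a whole-body level 168 times the storage cell level (exact 95% interval 118 to 246), which covers counting error only.

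Storage cell replicate 5 weighed most on the size of this difference in the edgeR fit. It held 21 of the 32 storage cell counts, or 65.6%. Without it the log2 fold change was -8.54 (SE 1.18, edgeR adjusted p = 0.00673), and the storage cell mean was 0.399 ± 0.47 TPM (SD, n = 4). The difference of mean log2(TPM + 1) moved less when replicate 5 was left out, from -7.29 to -7.61. With voom and sample quality weights, which allow for the unequal spread of the sample types, the log2 fold change was -8.10 (SE 1.02, limma adjusted p = 0.000125). No single whole-body library set the size, but each bore on the strength of the call: without whole body replicate 1, 2 or 3 the edgeR adjusted p was 0.0399, 0.0385 and 0.0388.

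A difference between these sample types was common, and the AMNP value is read against that background. Of the 10483 targets tested, 30.2% passed the same threshold in either direction and 16.6% were lower in storage cells, with a median log2 fold change of -5.11 among the 1739 lower ones. As for AMNP, the 5 storage cell values were below each of the 3 whole-body values in 31.0% of the targets tested. AMNP had the 388th lowest log2 fold change, within the lowest 3.7% of the targets tested, and the 974th smallest p. These counts depended on the whole-body libraries: 1167, 1259 and 1217 targets passed without whole body replicate 1, 2 or 3, against 3161 with all libraries.

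The rank of AMNP among all 14532 targets was much lower in storage cells than in whole bodies. By TPM it ranked 509th, 598th and 588th in the whole-body libraries, and 565th (the top 3.89%) by their mean. In storage cells it ranked 8948th in replicate 2, 8681st in replicate 4 and 6243rd in replicate 5. Those libraries held 11794, 10467 and 8927 targets above 0. In replicates 1 and 3 it was among the 6206 and 5609 targets without a count. By the storage cell mean it ranked 8970th. Ranks by TPM allow for length. Ranked by mean TMM-scaled CPM, which do not, AMNP was 1555th in whole bodies.

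**Figure D2:**
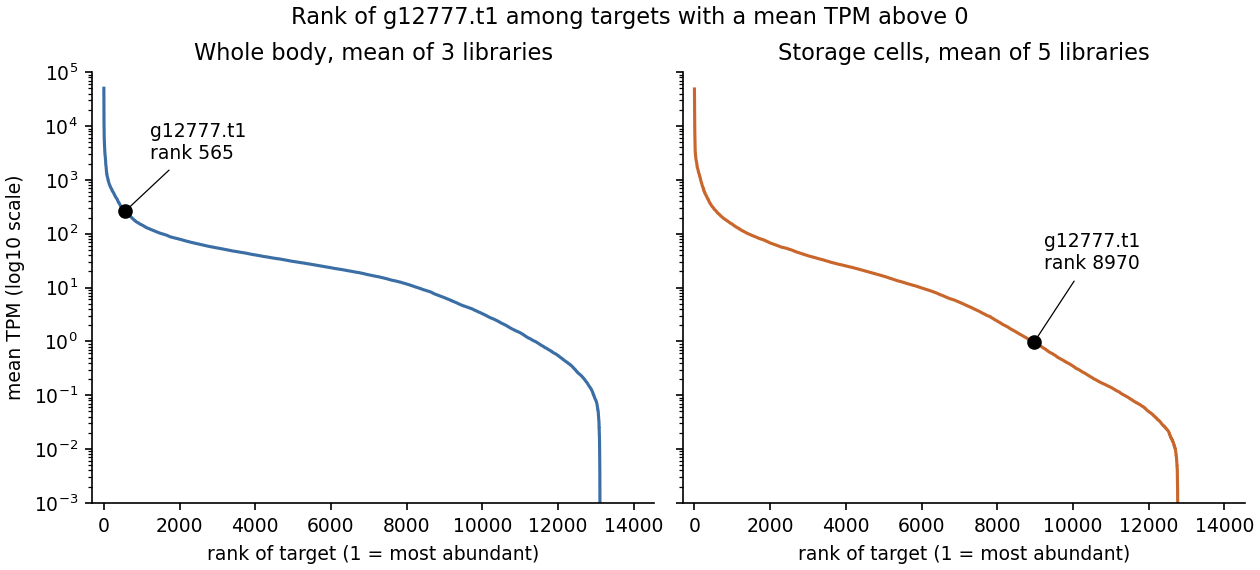
Mean TPM (log10 axis) of each target with a value above 0 against its rank, for the 3 whole-body libraries (left) and the 5 storage cell libraries (right) of R. varieornatus. The black point is g12777.t1, which ranks 565th in whole bodies and 8970th in storage cells.

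The targets beside AMNP in these orders had other storage cell levels, or the same in part. In whole bodies g11185.t1 lay just above it, with 262 ± 58.1 TPM (SD, n = 3), and g4032.t1 just below it, with 262 ± 21.3 TPM (SD, n = 3). Neither differed from AMNP in whole bodies by more than the replicate spread. In storage cell replicates 1 to 5, g11185.t1 had 0, 293, 0, 0.102 and 0.115 TPM, so it was near 0 in every library but replicate 2, which carried its mean of 58.7 ± 131 TPM (SD, n = 5). Target g4032.t1 had 344, 492, 555, 710 and 639 TPM there, each above its whole-body values of 247, 286 and 253 TPM. The storage cell neighbours g723.t1 and g9168.t1 had 0.959 ± 0.869 and 0.958 ± 0.784 TPM there (SD, n = 5), and 2.22 ± 0.357 and 5.71 ± 0.952 TPM in whole bodies (SD, n = 3).

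Few of the more abundant whole-body targets were lower than AMNP in storage cells. Of the 564 targets with a higher whole-body mean TPM, 27 (4.79%) had a lower storage cell mean TPM than AMNP, and the median of the 564 in storage cells was 340 TPM. The plot of whole-body against storage cell means places AMNP well below the line of equal level, near the lower edge of the targets of its abundance.

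**Figure D3:**
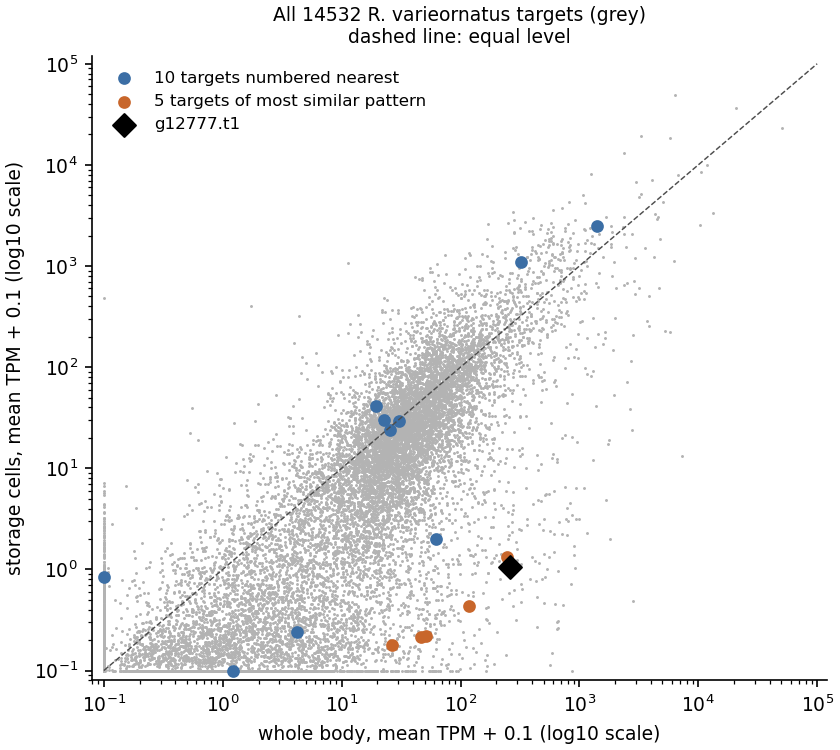
Mean TPM + 0.1 of every R. varieornatus target in whole bodies (3 libraries) against storage cells (5 libraries), both on log10 axes, with the line of equal level dashed. The black diamond is g12777.t1, at 262 and 0.959 TPM; the targets numbered nearest to it and those of the most similar pattern are coloured.

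Among the storage cell libraries, the AMNP counts were low enough for counting error to matter. The 21 counts of replicate 5 correspond to 1.88 CPM of the library total (95% exact binomial interval 1.16 to 2.87). The 6 counts of replicate 2 give 0.601 (0.221 to 1.31) and the 5 counts of replicate 4 give 0.493 (0.16 to 1.15). The intervals of replicates 5 and 2 overlap, and that of replicate 4 ends just below the interval of replicate 5. The absence of counts in replicates 1 and 3 allows a level of up to 0.365 and 0.311 CPM, if 3 counts are taken as the limit. By the 95% exact binomial interval used for the other replicates, the upper limits are 0.448 and 0.382 CPM.

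Absent counts were also frequent among other whole-body transcripts in replicates 1 and 3. Of the 565 targets at or above the whole-body level of AMNP, AMNP included, 101 (17.9%) had no count in storage cell replicate 1 and 87 (15.4%) had none in replicate 3, and 60 had none in both. The corresponding numbers were 22 in replicate 2, 53 in replicate 4 and 60 in replicate 5. Over all targets tested, the share without a count in storage cell replicates 1 to 5 was 25.5%, 4.88%, 20.5%, 11.05% and 20.7%. By that share replicate 5, with the most AMNP counts, was close to replicate 3, with none. Among the 565 targets, replicate 5 was nearer to replicate 4. The pattern of counts in replicates 2, 4 and 5 and none in replicates 1 and 3 was shared by 318 of all 14532 targets (2.19%), and by 20 of the 565, AMNP included in both. The part that the recovery of RNA in each library had in the AMNP values was not tested.

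Scaling raised replicate 5 further. TMM factors were 1.04 to 1.09 in whole bodies and 0.667 to 1.17 in storage cells, with the lowest in replicate 5, where AMNP had 2.82 CPM after scaling. This was 2.75% of the whole-body mean on that scale, and 1.22% on the TPM scale. In replicates 2 and 4 the level was 0.5% and 0.549% of the whole-body mean by CPM, and 0.348% and 0.26% by TPM. AMNP thus stayed below 3% of the whole-body mean in each storage cell library on either scale.

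The spread of AMNP between replicates was near that of other targets in whole bodies and wider in storage cells. In whole bodies the highest library was 1.18 times the lowest by TPM, and the SD of log2(CPM + 0.5) was 0.14, against a median of 0.17 over the targets tested. In storage cells that SD was 1.12, against a median of 0.82, and 66.4% of the targets tested had a smaller one. The storage cell SD of AMNP rests on 0 to 21 counts per library, where counting error and the added 0.5 weigh on it.

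The 5 targets whose pattern was most like that of AMNP across the 8 libraries were taken by rank. Likeness was measured as the root-mean-square difference of log2(TMM-scaled CPM + 0.5) after each target had been centred on its own mean. A small value means similar steps from library to library on that scale. A library without counts takes the value of the added 0.5, so the step to it depends on the CPM level of the target. Likeness is therefore in part a match of that level and of absent counts. The nearest of the 10482 other targets tested was g1755.t1, with a difference of 0.31, followed by g869.t1 (0.37), g538.t1 (0.38), g779.t1 (0.39) and g12664.t1 (0.44). The next, g290.t1, was as near as the last of these (0.44). In all, 162 targets differed from AMNP by less than 1, and the median target by 3.26, so the 5 named are the start of a longer series without a gap after them. These identifiers carry no product name in the tables, and the likeness is a description over libraries that fall into the 2 sample types.

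By TPM in whole bodies, the most similar targets were less abundant than AMNP, with g12664.t1 close to its level. By estimated count, which does not allow for length, g869.t1 (3381 bases) and g12664.t1 were above AMNP in each whole-body library. Targets g1755.t1 and g538.t1 were below it, and g779.t1 was near it. The nearest, g1755.t1 (3528 bases), had 24.8, 22.5 and 32.6 TPM in whole bodies, and 0, 0.133, 0, 0.0341 and 0.226 TPM in storage cell replicates 1 to 5. It was therefore at 0 in the same storage cell libraries as AMNP and was also highest in replicate 5. Target g779.t1 (1224 bases) had 121, 127 and 109 TPM in whole bodies and 0, 0.822, 0, 0.123 and 0.74 TPM in storage cells, where replicate 2 was the highest. Target g538.t1 (1800 bases) had counts in storage cell replicate 5 only, 15 in all, against 406 to 455 in each whole-body library.

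Target g12664.t1 (1221 bases) was the one of the 5 with a TPM level like that of AMNP. It had 275, 224 and 238 TPM in whole bodies and 1.09, 1.56, 0.336, 1.46 and 1.68 TPM in storage cells, so it was present in every storage cell library. The log2 fold changes of the 5 ran from -7.56 to -6.73, with edgeR adjusted p-values of 0.0012 to 0.0146, and that of g538.t1 rose to between 0.0538 and 0.0553 without any one whole-body library. They were selected for their likeness to AMNP over the same libraries, so these values describe the selection. The 5 also depended on how likeness was measured. None of them remained among the 5 nearest on log2(TPM + 1), and 1 remained (g1755.t1) with Pearson's correlation or without storage cell replicate 5.

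**Figure D4:**
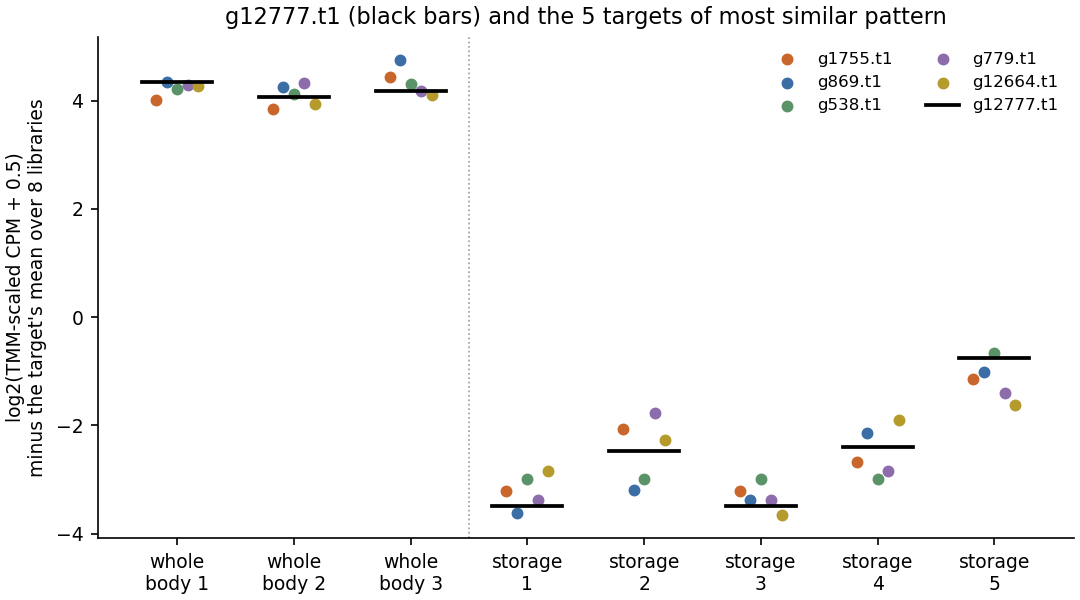
Log2(TMM-scaled CPM + 0.5) minus the target's own mean over the 8 libraries of R. varieornatus, for g12777.t1 (black bars) and the 5 targets of most similar pattern (coloured points), with whole-body libraries to the left of the dotted line. All 6 are high in the 3 whole-body libraries, and the storage cell values are lowest in replicates 1 and 3 for g12777.t1.

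The genes with the nearest numbers differed from AMNP in their levels. The tables hold 10 targets of the 5 genes numbered just below and the 5 numbered just above g12777, and the numbers are used here only as identifiers. Of these, 7 had enough counts for the edgeR test. In storage cells 2 were higher, 1 was lower and 4 did not pass the threshold, against 13.6% higher and 16.6% lower over all targets tested. The median log2 fold change of the 7 was 1.17.

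The next lower number, g12776.t1 (1248 bases), was abundant in both sample types. It had 1427, 1391 and 1383 TPM in whole bodies and 2138, 1223, 1779, 3217 and 4085 TPM in storage cell replicates 1 to 5. Storage cell replicate 2 lay below the whole bodies and the other 4 above. The log2 fold change, 1.69 (SE 0.73), missed the threshold (edgeR adjusted p = 0.114). It passed without storage cell replicate 2 (edgeR adjusted p = 0.0457), with the DESeq2 Wald test (adjusted p = 0.0492) and with voom and sample quality weights (limma adjusted p = 0.00356).

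Target g12774.t1 (627 bases) had 356, 313 and 302 TPM in whole bodies, a level near that of AMNP, and 942, 527, 508, 1500 and 1981 TPM in storage cells. Each storage cell library lay above the whole bodies, and the target rose by 2.66 on the log2 scale (SE 0.75, edgeR adjusted p = 0.0313). This call was lost without any one whole-body library (edgeR adjusted p of 0.107 to 0.115) and without storage cell replicate 4 (0.0508). AMNP and g12774.t1 thus had means of 262 and 324 TPM in whole animals, and of 0.959 and 1092 TPM in storage cells.

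Target g12782.t1 (846 bases) was the one of the 7 that fell in storage cells. It had 50.3, 65 and 70.6 TPM in whole bodies and 0, 0.445, 0.909, 4.87 and 3.28 TPM in storage cells, and fell by 4.08 on the log2 scale (SE 1.28, edgeR adjusted p = 0.0453). The groups did not overlap. The call was lost without any one whole-body library (edgeR adjusted p of 0.107 to 0.126), without storage cell replicate 3 or 5 (0.0761 and 0.0599) and with upper-quartile scaling (0.0517).

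Target g12780.t1 (1275 bases) passed the test on counts, 1.17 higher on the log2 scale (SE 0.27, edgeR adjusted p = 0.0153), although its TPM values of 20.2 to 24.0 in whole bodies and 19.96 to 44.6 in storage cells overlapped. The call was lost on log2(TPM + 1), where the difference was 0.34 (limma adjusted p = 0.449), and without any one whole-body library (edgeR adjusted p of 0.0669 to 0.0755). The remaining tested targets, g12773.t1, g12775.t1 and g12779.t1, had log2 fold changes of 0.63, 0.77 and 1.89 and missed the threshold (edgeR adjusted p of 0.105 to 0.586). Without storage cell replicate 1, g12779.t1 passed it (0.0269). Of the untested, g12778.t1 had no count in storage cells and at most 1 in a whole-body library, g12772.t1 had 6 to 17 counts in whole bodies and at most 3 in storage cells, and g12781.t1 had 37 counts in storage cells and none in whole bodies.

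**Figure D5:**
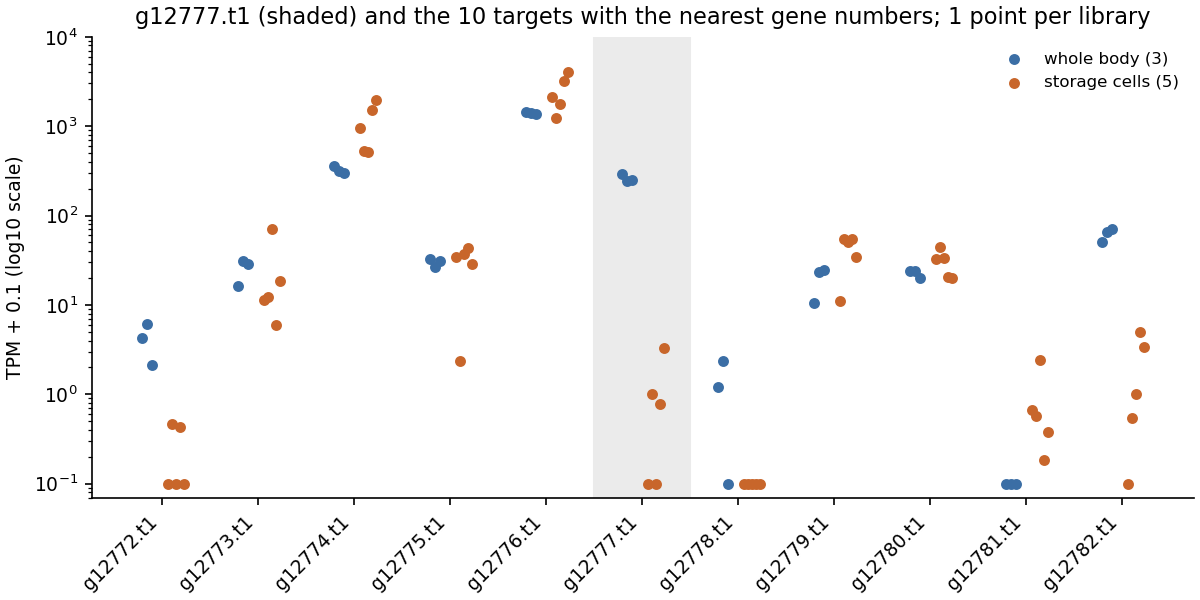
TPM + 0.1 (log10 axis) of g12777.t1 (shaded) and of the 10 targets with the nearest gene numbers in R. varieornatus, with 1 point per library, whole bodies at the left and storage cells at the right of each position. Among targets above 100 TPM in whole bodies, g12777.t1 lies at 0 to 3.2 TPM in storage cells, whereas g12774.t1 and g12776.t1 lie at 508 TPM or more there.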

How the data were processed

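The authors deposited 1 table per library with an estimated count and a TPM value for each target, and its length and effective length, per the file headers. The submitters' processing notes list bcl2fastq 2 and kallisto 0.46.1, and the sources used here do not name the transcript annotation. The deposited TPM values correct the estimated counts for effective length and sum to 1000000 in each library. AMNP estimated counts equalled whole numbers exactly in all 8 libraries, 2 of them with 0. Whether counting used strand is not given, so reads of an antisense transcript would not be told apart. No identifier matched the RefSeq table used here (0 of 14532 targets), so there are no positions, sequences, product names or marker genes, and the families planned by product name were not tested.

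Estimated counts were rounded and fitted over all R. varieornatus targets with edgeR 4.0.16 (R 4.3.3; filterByExpr, TMM, quasi-likelihood test, adjusted p threshold of 0.05); SE was derived from the fold change and the F statistic. P-values measure the spread between libraries labelled biological replicates. DESeq2 1.42.0 and limma 3.58.1 were alternatives. The fit was run on simulated data with the same spread in both sample types, so their unequal spread was not covered by it. Intervals are exact (Clopper-Pearson) and limits for 0 use 3 counts; both cover counting error only, because amplified reads are not independent molecules. Samples were grouped by title. The named targets were every form of g12777, the 5 of most similar pattern, those just above and below it by mean TPM, and those of the 5 genes numbered on either side. The gene and lists were chosen with earlier results of these data known. Same-numbered libraries did not deviate together (correlations of 0.0111 to 0.0435). Python 3.11.15 and scipy 1.17.1 were used.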

Additional observations from a re-analysis of the deposited data

Results flagged for a closer look

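The storage cell group was screened for a library far from the other 4 in 17 sets of values, those of g12777.t1 (as TPM and as CPM), of the 5 targets of most similar pattern and of the 10 with the nearest gene numbers. A library was picked out when its gap to the nearest other library exceeded 0.71 of the range of the group. Chance alone exceeds this limit in about 1 in 20 groups of 5 normally distributed values. Sets that rest on few counts, such as those of g12777.t1 and g538.t1, need not be so distributed. In g538.t1 only replicate 5 held counts, so the gap equals the range whatever their number. The chance rate for these sets is therefore not known, and the number picked out is not read as an excess. The screen picked out 5 of the 17, of which 2 are the same counts of g12777.t1 on different scales.

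AMNP in storage cell replicate 5 was the farthest library on both scales, with 3.2 TPM against 0.913 TPM in the next (0.714 of the range, close to the limit) and 2.82 CPM against 0.563 CPM (0.8 of the range). It rests on 21 counts. In g538.t1 the same replicate held 0.607 TPM, from 15 counts, with the other 4 libraries at 0. That target was selected for its likeness to AMNP over these libraries, so it adds no separate support. Replicate 3 stood apart in g12773.t1, with 70.7 TPM against 18.4 TPM in the next library, and in g12781.t1, with 2.3 TPM against 0.567 TPM. The causes were not tested.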

How the results depend on the processing

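AMNP stayed lower in storage cells in every setting run. Its log2 fold change was -7.06 and ran from -6.88 (upper-quartile factors) to -9.08 (limma on log2(TPM + 0.1)) over the other scalings, filters and tools, and from -8.54 to -6.74 with 1 library left out, always with an adjusted p below the threshold. With voom and sample quality weights it was -8.10. The replicate block gave -9.62 with an edgeR adjusted p of 0.0906, and 0 of 10483 targets passed (3127 at an unadjusted p below 0.05), against 3161 without the block; the same-numbered libraries share only a number, and 1 of the 3 whole-body libraries was most like its own number. The permutation p was the smallest possible in all 11 alternatives, which says no more than that the groups never overlapped. The number of targets called was 4830 with limma on log2(TPM + 1) and 6533 with voom, and 1167 to 4319 with 1 library left out. Calls in the direction of higher storage cell levels made up 45% of all calls, but 51.0% with upper-quartile factors, 33.7% with DESeq2-style factors and 12.3% with limma on log2(TPM + 1), where the median target lay at -1.12. The whole-body rank moved from 565 to 1555 by CPM, which do not allow for length. Of the 5 most similar targets, 1 was shared with Pearson's correlation, 0 with log2(TPM + 1) and 1 to 5 with 1 library left out. Targets g12773.t1 and g12775.t1, which did not pass the threshold, changed sign: g12773.t1 to -0.55 and -0.60 with limma (pseudocounts 1 and 0.1) and between -0.29 (without storage cell replicate 3) and 0.86 with 1 library left out, and g12775.t1 to -0.47 and -0.55 with limma and -0.44 with the replicate block. The causes were not tested. The 32 storage cell counts limit what can be said of differences among storage cell libraries. Forms of g12777 were not summed, as there is 1.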
